A study of Arabidopsis thaliana with 4 samples.

Results

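The chloroplast genome of Arabidopsis thaliana encodes subunits of the NAD(P)H dehydrogenase-like (NDH) complex, and 4 of these genes are described here in leaves that lack a NADPH hydrolase and in wild-type leaves. The probe sets were those that name a single gene on the plastid genome with the symbol ndhA, ndhE, ndhH or ndhK. They were 4 probe sets (244936_at for ndhA, 244933_at for ndhE, 244937_at for ndhH and 245011_at for ndhK) of 4 genes, out of 69 plastid genes and 13356 genes in all that had a probe set of their own. In KO-nudx19 the gene for NUDX19, a Nudix enzyme that hydrolyses NADPH, is knocked out, and KO-nudx19 and wild type are both of the accession Col-0. The labels do not say how the gene was disrupted, whether KO-nudx19 is more than 1 line, or how many plants went into a sample. Rosette leaves were taken at an age of 3 weeks, from plants that grew for 1 week on MS medium with 3% sucrose and then for 2 weeks in soil, where the day had 16 h of light (100 µmol m−2 s−1). The temperature was 25 °C in the light and 22 °C in the dark. Each genotype had 2 samples, numbered 1 and 2, each on its own Affymetrix ATH1 array.

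The NDH complex sits in the thylakoid membrane beside photosystem I, takes electrons from ferredoxin and passes them to plastoquinone. It thereby carries a part of cyclic electron flow around photosystem I and of the reduction of plastoquinone in the dark. Its core is related to respiratory complex I, with a membrane arm (products of ndhA to ndhG) and a stromal arm (products of ndhH to ndhK), and further subunits are encoded in the nucleus. The plastid genes lie in groups that are transcribed together into long RNAs and then cut, spliced and edited.

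The values were the deposited signals, in arbitrary linear units, 1 per probe set and array. The trimmed mean signal was nearly the same on all 4 arrays. Signals of different probe sets are not set against each other, because probes differ in how strongly they bind. For NUDX19 no probe set was named, so the KO-nudx19 label was not checked against the targeted gene here. Of 10 mesophyll markers 2 had a named probe set, RCA and PRK, and their summed signal was 24096 and 27658 in KO-nudx19 and 17664 and 20834 in wild type, higher in KO-nudx19 without overlap and not lowest on wild type replicate 2. Neither passed in limma, a linear model fitted to all tested probe sets with p-values adjusted over all of them. After quantile normalization the log2 difference of RCA (0.47) turned to −0.015 and that of PRK (0.34) fell to 0.062. The guard cell marker FMA had 85.8 and 81.1 in KO-nudx19 and 84.8 and 77.5 in wild type. EXPA7, the only root marker with a named probe set, lay between 1.20 and 6.28, under the floor of 8.92 used for dim signals. No vascular or flower marker had a named probe set. The labels do not say whether the numbered samples came from separately grown plants, so p-values measure the spread between these samples, which may be technical. Over all tested probe sets, same-numbered arrays deviated from their genotype's mean together (correlation 0.553 across 13648 probe sets), and genotype differences are therefore also given within each number.

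Of the 4 genes, ndhA had nearly the same signal on every array, whereas ndhE, ndhH and ndhK were many times lower on wild type replicate 2 than on the other 3 arrays. None of the 4 passed the test between KO-nudx19 and wild type, and for 0 of the 4 did the 2 genotypes separate, against 22.3% of all tested probe sets. The plot of the 4 genes by array shows this directly.

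**Figure D1:**
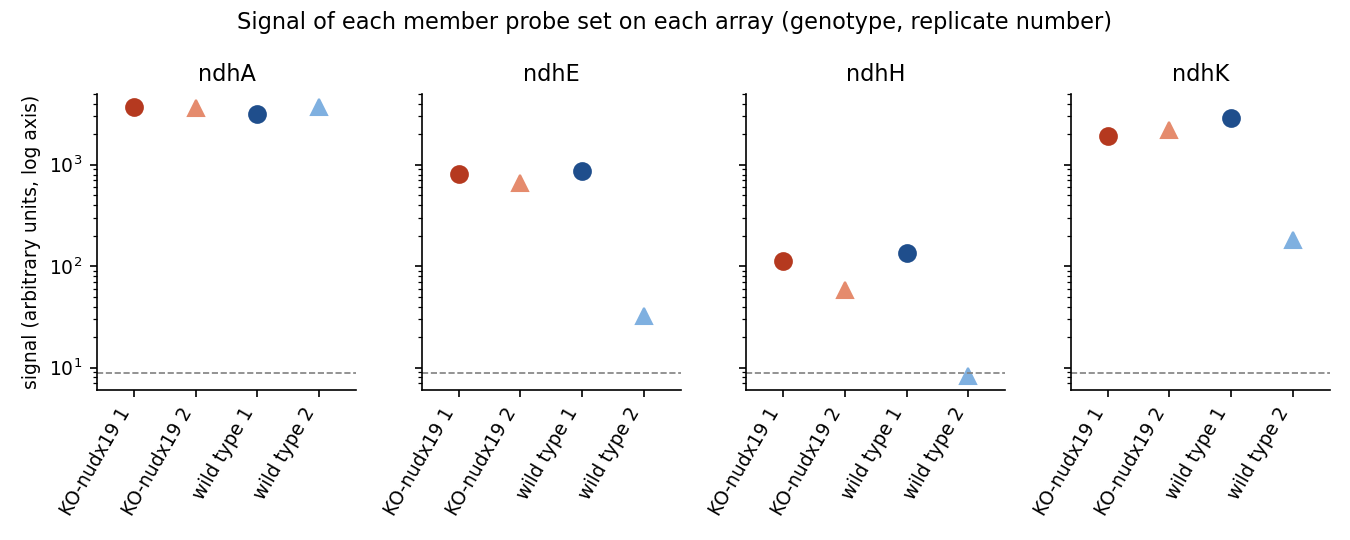
Signal of ndhA, ndhE, ndhH and ndhK (vertical log axis, arbitrary units) on the 2 KO-nudx19 and the 2 wild-type arrays, 1 point per array. The dashed line is the floor of 8.92. ndhA lies between 3184 and 3714 on all arrays, while wild type replicate 2 is the lowest array for ndhE (32.4), ndhH (8.21) and ndhK (183). Heights are not comparable between panels.

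In the membrane arm, ndhA encodes the subunit that anchors the stromal arm and helps to form the site where plastoquinone is reduced. Its signal was 3707 and 3648 in KO-nudx19 leaves (replicates 1 and 2), against 3184 and 3714 in wild-type leaves. The wild-type arrays were the lowest and the highest of the 4, so the KO-nudx19 values lay between them. The means were 3678 ± 41.8 in KO-nudx19 and 3449 ± 375 in wild type (SD, n = 2 each). The log2 difference was 0.097 (SE 0.23, 95% interval −0.47 to 0.66), and limma gave an adjusted p of 1.00. The highest array was 1.17-fold above the lowest, and 5.57% of all tested probe sets varied as little or less.

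The other membrane gene, ndhE, encodes a small subunit of the proton-translocating part. It had signals of 816 and 663 in KO-nudx19, against 863 and 32.4 in wild type. Wild type replicate 1 was thus the highest array and wild type replicate 2 the lowest, 20.5-fold below the next one. The genotype means of 739 ± 108 in KO-nudx19 and 448 ± 587 in wild type differ by less than the wild-type SD (n = 2 each). The log2 difference of 2.14 (SE 1.40, 95% interval −1.29 to 5.56) had an adjusted p of 1.00 in limma.

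In the stromal arm, ndhH encodes the subunit that holds the plastoquinone site on the side of the iron-sulphur chain. Its signal was 113 and 58.7 in KO-nudx19 and 134 and 8.21 in wild type. The value on wild type replicate 2 lay under the floor of 8.92 (the 20th percentile of all values) to which low signals were raised before log2 was taken, so differences that involve it are understated. Here too wild type replicate 2 was lowest, and KO-nudx19 replicate 2 was 1.92-fold below KO-nudx19 replicate 1. The means were 85.6 ± 38.1 in KO-nudx19 and 71.0 ± 88.8 in wild type (SD, n = 2 each), with a log2 difference of 1.24 (SE 1.21, 95% interval −1.74 to 4.21) and an adjusted p of 1.00 in limma. With the floor raised to the 40th percentile the difference was 0.21, and the median of the 4 genes was 0.85 in place of 1.37.

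ndhK encodes the stromal subunit that carries the last iron-sulphur cluster before plastoquinone. It had signals of 1933 and 2197 in KO-nudx19, against 2923 and 183 in wild type. Both KO-nudx19 arrays lay between the 2 wild-type arrays, and wild type replicate 2 was 10.6-fold below the next lowest. The means were 2065 ± 187 in KO-nudx19 and 1553 ± 1938 in wild type (SD, n = 2 each). The log2 difference of 1.496 (SE 1.18, 95% interval −1.41 to 4.40) had an adjusted p of 1.00 in limma.

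All 4 log2 differences between KO-nudx19 and wild type were above 0, with a median of 1.37, against a median of −0.00029 over all 13648 tested probe sets and of 0.75 over the 65 tested plastid ones. In limma 0 of the 4 passed an adjusted p of 0.05, as did 0% of all tested probe sets, of which 89 had an unadjusted p under 0.05. For ndhE, ndhH and ndhK the direction came from wild type replicate 2. Without that array the log2 differences were −0.23, −0.72 and −0.50, the median of the 4 genes was −0.37, and ndhA stood at 0.21. With wild type replicate 2 as the only wild-type array they were 4.51, 3.19 and 3.50, and ndhA stood at −0.014. In that fit the median over the 65 tested plastid probe sets was 1.86. There the lone wild-type array is assumed to vary like the KO-nudx19 arrays, so only sizes are given here. In bulk samples as such, fewer cells of a type and less RNA per cell cannot be told apart. Of nuclear genes of green cells, RCA had 13711 on wild type replicate 2, against 11113 on wild type replicate 1 and 14928 and 19541 in KO-nudx19. PRK had 7123 on wild type replicate 2, against 6551 on wild type replicate 1 and 9168 and 8117 in KO-nudx19. For both genes wild type replicate 2 thus lay between wild type replicate 1 and the KO-nudx19 arrays. On wild type replicate 2 the NDH subunit genes NdhN, NdhS and NdhL had 1011, 1249 and 898. On wild type replicate 1 they had 809, 1149 and 879. Whether the share of green cells differed was not tested.

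Taken within each replicate number, the genotype difference did not repeat. Between the arrays numbered 1, KO-nudx19 minus wild type was 0.22 for ndhA, −0.081 for ndhE, −0.25 for ndhH and −0.60 for ndhK on the log2 scale. For the arrays numbered 2 it was −0.026 for ndhA, 4.36 for ndhE, 2.72 for ndhH and 3.59 for ndhK. Thus all 4 genes had opposite signs for the 2 numbers, and ndhE, ndhH and ndhK had differences of more than 4-fold for number 2 only, where 0.322% of all tested probe sets were at least 4-fold higher in KO-nudx19, against 0.0513% for number 1. Quantile normalization and centring on the median kept the sign of each of these 8 differences. With 1 array per genotype and number there is no residual spread, and the change of the genotype difference between numbers was not tested.

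**Figure D2:**
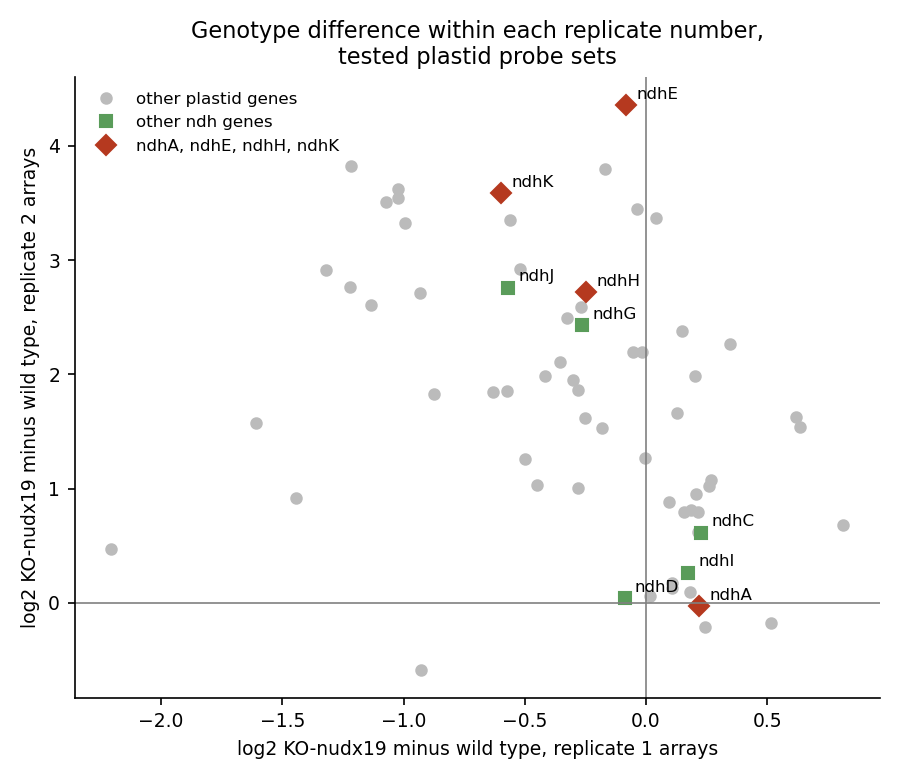
Log2 difference KO-nudx19 minus wild type for the arrays numbered 1 (horizontal) and numbered 2 (vertical), 1 point for each of the 65 tested plastid probe sets. Red diamonds are ndhA, ndhE, ndhH and ndhK, green squares other ndh genes and grey points the remaining plastid genes. ndhE, ndhK and ndhH stand at 4.36, 3.59 and 2.72 on the vertical axis and at or below −0.081 on the horizontal one, while ndhA lies near 0 on both.

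The replicate numbers were also compared across both genotypes, with genotype as a term in limma. That fit leaves 1 residual degree of freedom for each probe set, against 19.0 prior degrees of freedom shared by all probe sets. Its SEs and p-values therefore rest mostly on the spread of other probe sets. Lower on the arrays numbered 2 were ndhE (log2 difference −2.52, SE 0.55, adjusted p = 0.00413), ndhH (−2.42, SE 0.47, adjusted p = 0.00152) and ndhK (−1.91, SE 0.51, adjusted p = 0.0186), and ndhA did not pass (0.099, SE 0.19, adjusted p = 0.804). Of all tested probe sets 6.32% passed as lower on the arrays numbered 2, and so did 30 of the 61 tested plastid probe sets other than the 4. The size came from wild type. Between replicate 2 and replicate 1 the log2 difference was −0.30 in KO-nudx19 and −4.74 in wild type for ndhE, −0.94 and −3.91 for ndhH, and 0.18 and −4.00 for ndhK. For ndhK the 2 genotypes therefore moved in opposite directions. Without a filter on dim probe sets none of the 3 passed (adjusted p = 0.609, 0.546 and 0.629 for ndhE, ndhH and ndhK). Robust fitting, which shrinks probe sets of unusual spread less towards the common spread, ended all 3 calls as well (0.659, 0.423 and 0.716). The calls of ndhE and ndhK also ended without a trend in the variance (adjusted p = 0.0514 and 0.112), and that of ndhK with a stricter filter (0.0603). With the floor at the 40th percentile ndhH stood at −1.39 and still passed. The count of plastid probe sets passing as lower, the 4 genes included, depended on the same settings. It was 33 of 65 in the main fit, 19 without a trend, 6 with robust fitting and 0 of 69 without a filter.

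Wild type replicate 2 was the lowest array for 26.4% of all tested probe sets and for 3 of the 4 genes. By size, 0.894% of all tested probe sets were at least 2-fold lower on wild type replicate 2 than on each other array, and ndhE, ndhH and ndhK were among them. At 8-fold these were 0.0806%, or 11 probe sets, of which ndhE and ndhK were 2. Measured as log2 of wild type replicate 2 minus the mean of the other 3 arrays, the departure was −4.58 for ndhE, −3.66 for ndhK, −3.43 for ndhH and 0.083 for ndhA. Counted from the most negative, these rank 2, 10, 14 and 8389 of 13648 probe sets. Within the 65 tested plastid probe sets ndhE ranked first, ndhK 7, ndhH 10 and ndhA 62, so the 4 genes lay at both ends of a departure that most plastid genes shared (median −2.03). Of the 61 tested plastid probe sets other than these, 36 were at least 2-fold lowest on wild type replicate 2, and 0 were so on any of the other 3 arrays.

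**Figure D3:**
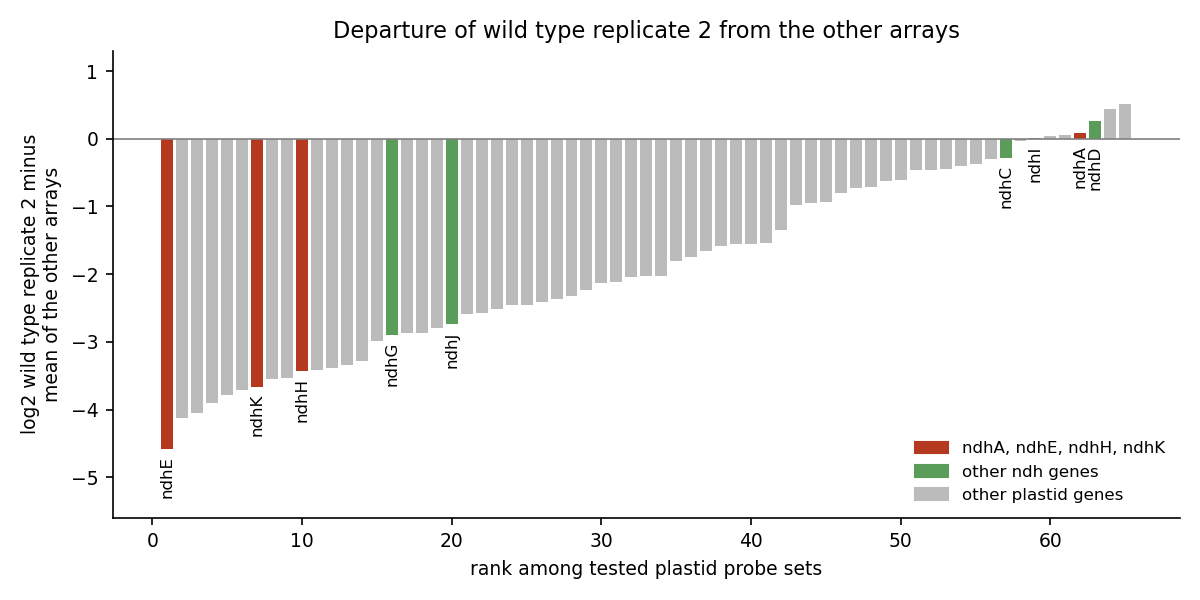
Log2 signal on wild type replicate 2 minus the mean log2 signal of the other 3 arrays, 1 bar for each of the 65 tested plastid probe sets, sorted. Red bars are ndhA, ndhE, ndhH and ndhK and green bars other ndh genes. ndhE has the most negative bar (−4.58), ndhK and ndhH are among the first 10, and ndhA (0.083) is near the upper end.

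Array controls also differed between the arrays. Hybridisation controls, bacterial and phage targets added to the labelled sample, averaged (geometric mean) 1054 and 1140 on the KO-nudx19 arrays and 620 and 411 on the wild-type arrays, lowest on wild type replicate 2. Poly(A) controls, bacterial RNAs added before labelling, averaged 98.2 and 21.0 in KO-nudx19 and 116 and 19.9 in wild type, and so differed by number in both genotypes. The 3′ to 5′ signal ratio of actin, which rises as RNA breaks down, was 12.2 and 20.5 in KO-nudx19 against 22.0 and 20.6 in wild type. A second pair of actin probe sets gave 2.92 and 5.17 in KO-nudx19 against 2.30 and 4.27 in wild type. For GAPDH the ratio was 1.90 and 2.98 in KO-nudx19 and 1.71 and 1.99 in wild type, and for ubiquitin 4.27 and 4.35 in KO-nudx19 and 3.73 and 3.20 in wild type. Second pairs gave 0.99 and 1.38 in KO-nudx19 and 1.01 and 1.15 in wild type for GAPDH. For ubiquitin they gave 1.48 and 1.95 in KO-nudx19 and 1.53 and 1.44 in wild type. No pair was highest on wild type replicate 2. Both GAPDH pairs and the second actin pair were higher on the arrays numbered 2 in both genotypes. The 25S ribosomal RNA probe set had 971 and 856 in KO-nudx19 and 1781 and 748 in wild type. The part of these in the low ndh signals was not tested.

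The agreement between the 4 genes was described by the root mean square difference of their log2 signals over the 4 arrays, each gene centred on its own mean. It was 0.42 for ndhH and ndhK, 0.45 for ndhE and ndhK, and 0.58 for ndhE and ndhH. Against ndhA it was 2.03 for ndhE, 1.65 for ndhK and 1.60 for ndhH. The split was therefore not that of the arms, since ndhE of the membrane arm went with the stromal ndhH and ndhK. Over the 3 arrays other than wild type replicate 2 the differences between pairs were 0.24 to 0.57, with ndhE and ndhA (0.24) as near to each other as ndhE and ndhK (0.24).

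The remaining plastid ndh genes fell into the same 2 kinds. Of 11 plastid ndh genes, 9 had a tested probe set of their own. Of the 5 of these beside the 4 genes, 2 were at least 4-fold lower on wild type replicate 2 than on each other array. With ndhE, ndhH and ndhK it was 5 of the 9, against 15 of the 56 tested plastid probe sets of other genes and 0.234% of all tested probe sets. The further 2 were ndhG, a membrane subunit, with 249 and 169 in KO-nudx19 and 299 and 31.2 in wild type, and ndhJ, a stromal subunit, with 2777 and 3443 in KO-nudx19 and 4118 and 508 in wild type. The even kind held ndhA, ndhC, ndhD and ndhI. The membrane gene ndhC had 4973 and 6465 in KO-nudx19 and 4248 and 4218 in wild type (log2 difference 0.42, adjusted p = 1.00 in limma). It was the only one of the 9 whose genotypes did not overlap, against 22.3% of all tested probe sets.

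ndhD, a large membrane subunit, had 659 and 941 in KO-nudx19 and 701 and 912 in wild type, higher on both arrays numbered 2. ndhI, which carries iron-sulphur clusters in the stromal arm, had 10740 and 13429 in KO-nudx19 and 9531 and 11165 in wild type, and its log2 genotype difference of 0.22 turned to −0.23 after quantile normalization. The dim probe sets were ndhF, with 11.9 and 42.9 in KO-nudx19 and 12.2 and 13.4 in wild type, and a probe set for both copies of ndhB, with 13.5 and 25.5 in KO-nudx19 and 8.63 and 18.4 in wild type. Both lay under the filter on dim probe sets (a mean signal of 38.2) and were not tested. The genotype difference was above 0 for 8 of the 9 tested genes (median 1.09), as for 60 of the 65 tested plastid probe sets (median 0.75), and 0 of the 9 passed in limma. Between the arrays numbered 1 it was below 0 for 6 of the 9 (median −0.089), and between those numbered 2 above 0 for 8 (median 2.43).

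**Figure D4:**
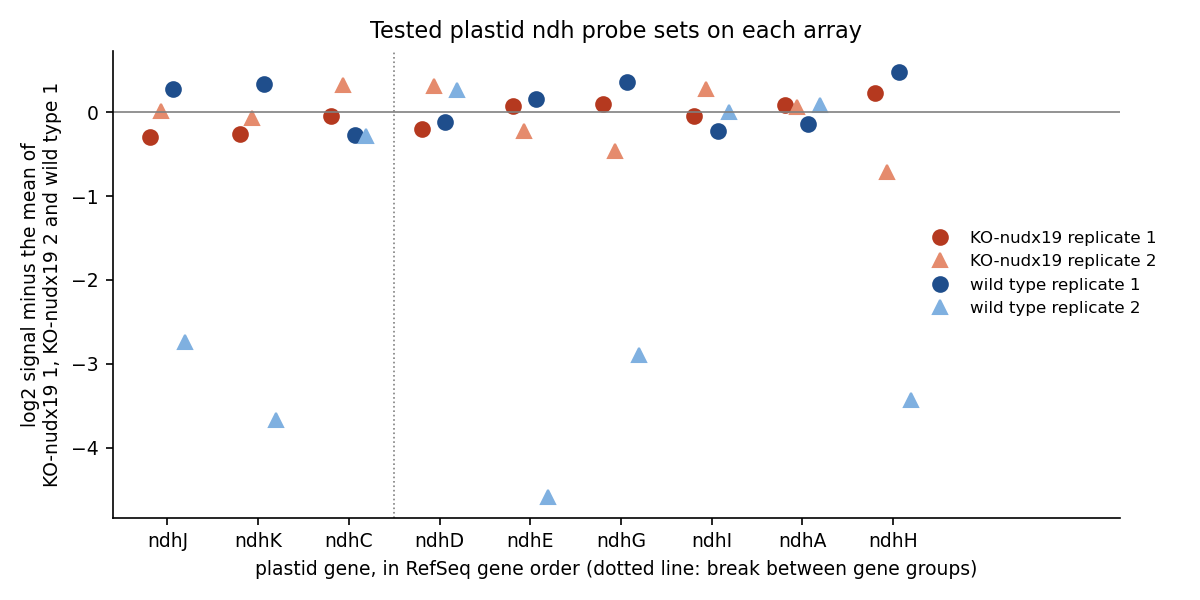
Log2 signal of the 9 tested plastid ndh genes, in the order of the plastid genome, minus the mean of KO-nudx19 replicates 1 and 2 and wild type replicate 1. Points are single arrays, red for KO-nudx19 and blue for wild type, circles for replicate 1 and triangles for replicate 2. Wild type replicate 2 lies at −2.74 (ndhJ), −3.66 (ndhK), −4.58 (ndhE), −2.90 (ndhG) and −3.43 (ndhH), and within 0.29 of 0 for ndhC, ndhD, ndhI and ndhA.

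Neighbouring genes were partly of the same kind and partly not. In the RefSeq gene order ndhA stands between ndhI, which was even, and ndhH, which was low on wild type replicate 2. ndhK stands between ndhJ, whose profile was near (root mean square difference 0.40), and ndhC, whose profile was not (1.51). Next to ndhE are ndhG (0.75) and psaC, a photosystem I gene with 57.9 and 264 in KO-nudx19 and 122 and 23.2 in wild type (1.29). Beyond ndhH lies rps15, a ribosomal protein gene with 243 and 331 in KO-nudx19 and 568 and 48.7 in wild type (0.56).

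For each of the 4 genes the 3 plastid probe sets with the nearest profile over the 4 arrays were taken. Nearest to ndhA were psbF of photosystem II (root mean square difference 0.05), the ribosomal protein gene rps18 (0.07) and ndhI (0.14). Of all 13648 tested probe sets, 107, or 0.784%, were as near to ndhA as psbF, and 13.8% were as near as ndhI. Nearest to ndhE were accD, a subunit of acetyl-CoA carboxylase (0.36), psbC of photosystem II (0.37) and rpl20 of the ribosome (0.42). Nearest to ndhH were cemA, an envelope protein gene (0.20), ycf3, which aids photosystem I assembly (0.24), and ndhG (0.28). Nearest to ndhK were petL of the cytochrome b6f complex (0.16), psbC (0.17) and atpH of the ATP synthase (0.23). At most 4 of all tested probe sets were as near to ndhE, ndhH or ndhK as the third of these. The genes near ndhE, ndhH and ndhK had in common the low signal on 1 array, wild type replicate 2, and all profiles share the same 4 arrays.

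Across the 65 tested plastid probe sets, replicate 2 minus replicate 1 in KO-nudx19 and the same in wild type had a Pearson correlation of 0.46, against 0.57 across the 13583 other tested probe sets (probe sets share arrays and are not replicates). In both genotypes 27 of the 65 were lower on replicate 2, among them ndhE and ndhH, and 28 were lower in wild type but not in KO-nudx19, among them ndhK. Of the 13583 other probe sets, 5050 were lower in both genotypes and 2262 in wild type but not in KO-nudx19.

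Nuclear genes of the NDH complex showed no drop on wild type replicate 2. Of 17 nuclear subunit genes, 3 had a named probe set. NdhN had 775 and 738 in KO-nudx19 and 809 and 1011 in wild type, NdhS, which docks ferredoxin, had 1491 and 1351 in KO-nudx19 and 1149 and 1249 in wild type, and NdhL had 1012 and 843 in KO-nudx19 and 879 and 898 in wild type. NdhN was lower and NdhS higher in KO-nudx19 without overlap, with log2 differences of −0.26 and 0.24. Of all tested probe sets 22.3% were without overlap in 1 direction or the other. None of the 3 subunit genes passed in limma (adjusted p = 1.00 for each).

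Among the 11 nuclear factors for transcription or maturation of ndh RNAs, 5 had a named probe set, 4 were tested, and 0 passed in limma in either direction. The log2 differences of all 4 were below 0, as were 6830 of all 13648 tested, with a median of −0.39. For 3 of the 4 the genotypes did not overlap, against 22.3% of all tested probe sets in 1 direction or the other. All 3 were lower in KO-nudx19, as were 1614 of all 13648 tested probe sets without overlap. These 3 are pentatricopeptide repeat proteins needed for editing of plastid RNAs. CRR21 had 167 and 143 in KO-nudx19 and 215 and 175 in wild type. OTP84 had 65.7 and 72.4 in KO-nudx19 and 91.2 and 98.1 in wild type. CRR22 had 39.3 and 38.6 in KO-nudx19 and 55.4 and 52.6 in wild type. Their log2 differences of −0.33, −0.46 and −0.47 each kept their sign under quantile normalization and median centring. Without overlap between the genotypes the sign has to be the same for both replicate numbers, so that adds nothing. The other tested factor, CRR28, had 59.6 and 29.3 in KO-nudx19 and 51.1 and 34.6 in wild type, with a log2 difference of −0.0090 although its mean signal was higher in KO-nudx19 (44.5, against 42.9 in wild type). OTP85 was too dim to be tested.

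The 3 assembly factor genes with a probe set, of 10, overlapped between the genotypes. CRR41 had 174 and 252 in KO-nudx19 and 227 and 211 in wild type, CRR42 had 279 and 251 in KO-nudx19 and 213 and 341 in wild type, and AT5G52780 had 715 and 490 in KO-nudx19 and 726 and 659 in wild type. Of 8 genes of the other cyclic route, ferredoxin and its reductase and the plastid terminal oxidase, only PGRL1B had a named probe set. This gene of the antimycin-sensitive route of cyclic electron flow had 355 and 300 in KO-nudx19 and 377 and 455 in wild type. The log2 difference was −0.34, with an adjusted p of 1.00 in limma. Its genotypes did not overlap, as for 22.3% of all tested probe sets.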

How the data were processed

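The deposited values are intensity signals, and each array has 1 signal for every probe set. The authors made them with GCOS, per the submitters' processing notes. The sources used here do not state its version, background correction, scaling target or the primer of the reverse transcription. The primer could affect signals of plastid RNAs, which mostly lack stable poly(A) tails. Probe sets were named through the platform annotation and RefSeq gene identifiers (TAIR10.1). No coordinates are given, since the values name no build. Signals were floored at the 20th percentile (8.92) and put on the log2 scale. Leaving out 64 control probe sets and those with a mean under the 40th percentile (38.2), 13648 were tested with limma 3.58.1 (R 4.3.3, eBayes with a trend, Benjamini-Hochberg adjustment over all of them, threshold 0.05). All 4 genes passed the filter. The smallest two-sided p of an exact test on 2 and 2 arrays is 0.333, so none was used. The code was tested on simulated arrays. Precision is limited by the small number of arrays. The genes, lists and tests were chosen with earlier results of these data known. Beside the 4 genes, those named were the other plastid ndh genes, gene-order neighbours, the 3 nearest plastid profiles of each gene, and of each list those passing, the 3 with the widest gap between genotypes and the brightest. Further members of short lists were added after their values were seen. Alternatives were other scalings, floors, filters and variance models, a replicate block and leaving out each array. Figures were drawn with matplotlib 3.10.9.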

Additional observations from a re-analysis of the deposited data

How the results depend on the processing

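With 2 arrays per genotype the array that is left out decides most values. Leaving out single arrays, the log2 difference KO-nudx19 minus wild type ranged from −0.014 to 0.21 for ndhA, from −0.23 to 4.51 for ndhE, from −0.72 to 3.19 for ndhH and from −0.50 to 3.50 for ndhK, and the median of the 4 from −0.37 (without wild type replicate 2) to 3.34. The number of probe sets passing between the genotypes ranged from 0 to 10. For replicate 2 minus replicate 1 the ranges were −0.023 to 0.22 for ndhA, −4.74 to −0.30 for ndhE, −3.91 to −0.94 for ndhH and −4.00 to 0.18 for ndhK, as values with no test, since 3 arrays leave no residual spread with genotype as a term, and no count was possible there.

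The labels do not say that the replicate number pairs the samples, and 2 pairs are too few to settle it from the data. With the replicate block 2 probe sets passed between the genotypes, neither of them for one of the 4 genes. With quantile normalization and the replicate block 93 passed, among them ndhE (2.14, adjusted p = 7.3e-15) and ndhK (1.40, adjusted p = 2.2e-07). Of these 93, 26 were plastid probe sets, all higher in KO-nudx19. The block leaves 1 residual degree of freedom for each probe set, against 19.0 prior degrees of freedom shared by all probe sets with the block alone and an infinite number with quantile normalization, so that there the spread came wholly from other probe sets. The replicate block alone gave ndhE an adjusted p of 0.243 and ndhK one of 0.578.

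Between the replicate numbers 1535 probe sets passed, 1012 with a filter at the 60th percentile (9099 tested, ndhH not among them) and 0 without a filter, where 2705 had an unadjusted p under 0.05. Without a filter ndhE (−2.52), ndhH (−2.42) and ndhK (−1.91) kept their size and missed the threshold (adjusted p = 0.609, 0.546 and 0.629), as they did with robust fitting (0.659, 0.423 and 0.716). ndhE and ndhK also missed it without a trend (0.0514 and 0.112), and ndhK with the stricter filter (0.0603). ndhA turned to −0.042 after quantile normalization. The cause of these changes was not tested. With the floor at the 40th percentile ndhH stood at 0.21 between the genotypes and at −1.39 between the numbers, and the median of the 4 genes at 0.85. The genotype difference of ndhA was 0.026 after quantile normalization. Of 15 alternatives, the median of the 4 genes kept its sign in 14 and lost it without wild type replicate 2.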
